A study of Mus musculus with 2 samples.

Results

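Collagens, laminins and integrins are the structural chains of the extracellular matrix and the receptors that hold cells to it, and their genes were read here against a map of YY1 binding in muscle stem cells (MuSCs). The genes were taken from the GENCODE basic annotation of GRCm38 (the mm10 sequence), release M21, as the protein-coding genes whose symbols begin with Col, a number and a chain letter, with Lama, Lamb or Lamc, or with Itga or Itgb. This gave 87 of 21938 protein-coding genes, of which 45 have collagen symbols, 11 laminin symbols and 31 integrin symbols. For 5 of the 87 only the symbol matched: Col4a3bp encodes a ceramide transfer protein, Itgb1bp1, Itgb1bp2 and Itgb3bp encode proteins named for binding an integrin tail, and Itgbl1 encodes an integrin-like secreted protein. A gene was called bound when the summit of a YY1 peak lay within 1000 bp of the start of any of its transcripts.

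Collagen chains wind in threes into triple helices, which build fibrils in connective tissue (collagens I, III and V), the sheet of the basement membrane (collagen IV) or beaded filaments around muscle fibers (collagen VI). Laminins are cross-shaped trimers of an alpha, a beta and a gamma chain that form the other sheet of the basement membrane, under which MuSCs lie against the muscle fiber. Integrins are receptors of an alpha and a beta subunit that bind these proteins outside the cell and the actin skeleton inside it. YY1 is a zinc finger protein that binds DNA at promoters and enhancers and can activate or repress genes.

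The library came from MuSCs pooled from several Ctrl mdx mice, and 1 YY1 ChIP-seq library was called against 1 background library, so no value carries an error between mice or libraries. ChIP-seq pulls down DNA with an antibody to a protein, here YY1, and sequences it. In the study, Ctrl mice carry Pax7CreERT2, a tamoxifen-inducible Cre made in Pax7-expressing MuSCs, and R26YFP on the mdx background, a mutation of the dystrophin gene, with Yy1+/+, and received tamoxifen like the mice in which Yy1 was deleted. The labels describe cultured MuSCs and the series text wild-type cells, whereas the results of the study describe freshly isolated cells of mdx mice. The background is input in the labels and an input (IgG) sample in the methods, and only its use in peak calling enters here. The labels give no age, and a list of binding sites holds no expression with which the cell type could be checked. The list holds 4681 peaks from 13357713 fragments, a depth computed from the background values in the list. Each peak has a fold enrichment, which MACS2 computes after adding 1 fragment to the summit count and 1 to the background count, so it is lower than the plain ratio of the fragments and background given with it. From it and the p-value the number of fragments at the summit was recovered (8 to 394, median 14). Where the local background was at its genome-wide level of 1.54 fragments, 8 fragments were needed to pass the peak caller's limit, so a gene without a peak may have had YY1 below that limit.

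YY1 was bound at 9 of the 87 genes, or 10.3% (95% exact binomial interval 4.84% to 18.7%, counting error only), whereas 4119 of all 21938 protein-coding genes, or 18.8%, were bound by the same rule. The bound genes were the basement membrane collagens Col4a1 and Col4a2, the transmembrane collagen Col23a1, the laminin chains Lamb2 and Lamc1, the integrin subunits Itgav, Itga9 and Itgb1, and Itgb1bp1. By family, 3 of 45 collagen symbols (6.67%, interval 1.40% to 18.3%), 2 of 11 laminin symbols (18.2%, interval 2.28% to 51.8%) and 4 of 31 integrin symbols (12.9%, interval 3.63% to 29.8%) were bound. The intervals of the laminin and integrin shares hold the share of all genes, and that of the collagens ends just below it. Without the 5 genes whose symbol alone matched, 8 of 82 genes (9.76%) were bound. With 1 library these are counts of genes in 1 experiment, and no test of the difference between the families or from all genes was made. Counting summits up to 100 bp downstream of a start in place of 1000 bp left 6 bound genes, without Itgb1, Itga9 and Col23a1, and a fold enrichment of at least 5 left 4, Col4a1, Col4a2, Lamb2 and Itgav, while the shares of all genes became 14.6% and 11.1%.

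**Figure D1:**
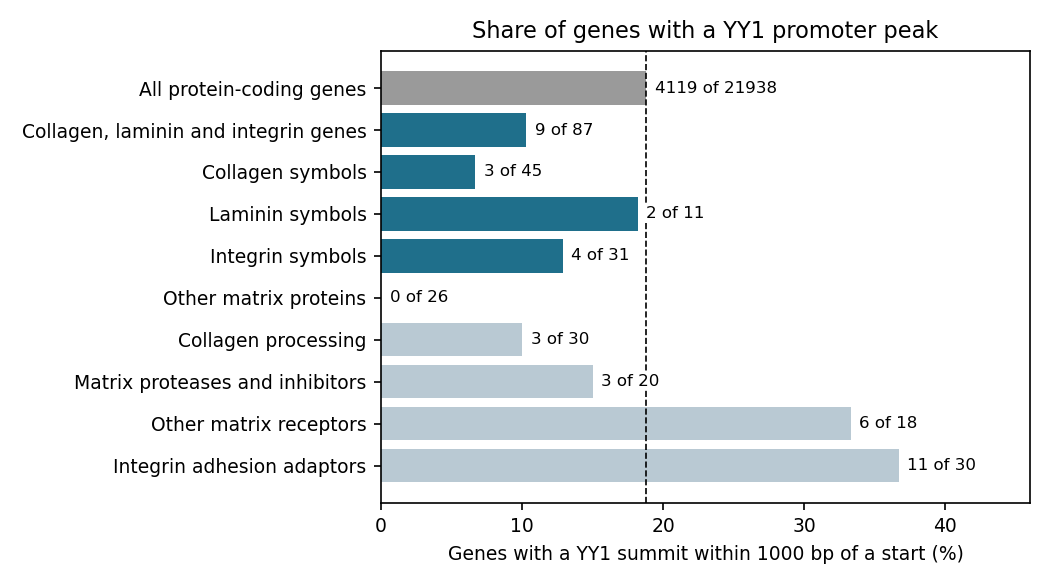
Percentage of genes with a YY1 summit within 1000 bp of a start (horizontal axis) for all protein-coding genes (grey), the collagen, laminin and integrin genes together and by family (dark blue), and lists of related genes (light blue), with the number bound of the number in each. The dashed line is the share of all protein-coding genes, 18.8%; the integrin adhesion adaptors (36.7%) lie to its right and the collagen symbols (6.67%) to its left.

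Among the collagen genes, the promoter peak of highest fold enrichment lay at the overlapping starts of Col4a1 and Col4a2, which encode the alpha1 and alpha2 chains that together make the widespread form of collagen IV. Their transcripts run in opposite directions from starts 21 bp apart, and 1 peak on chr8:11312649-11313157 served both. Its summit lay 24 bp downstream of the Col4a1 start, in the 5′ untranslated region, and 3 bp upstream of the Col4a2 start. It had 15 fragments over a background of 1.54, a fold enrichment of 6.31 (95% Poisson interval 3.71 to 10.2, which covers counting error only). The peak caller's exact Poisson p was 1.08e-11 with q = 1.94e-07, and 80% of all peaks had a lower fold enrichment. The 30 bases that hold both starts and the summit, chr8:11312800-11312829 on the plus strand of GRCm38, are shown because the peak was centered there, with CG dinucleotides in capitals.
Col4a1 and Col4a2 starts: tCGgcagtgCGCGggCGgCGtctccaaggg
They hold 5 CG dinucleotides.

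The other collagen IV genes lie in pairs of the same kind and had no summit near. Col4a3 and Col4a4, whose chains replace the widespread form in kidney and lung, start 127 bp apart, and the nearest summit was 138 kb away. Col4a5 and Col4a6 lie on the X chromosome with their closest starts 1309 bp apart, and the nearest summit was 4732 kb away from them. The pairs also differed in the CpG content of their starts. The observed over expected number of CG dinucleotides within 500 bp of a start, for which a value near or above 0.6 marks CpG island sequence, was 0.775 and 0.785 at Col4a1 and Col4a2, 0.451 and 0.459 at Col4a3 and Col4a4, and 0.447 and 0.300 at Col4a5 and Col4a6.

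The third bound collagen gene was Col23a1, which encodes a transmembrane collagen. Its peak on chr11:51290053-51290381 had a summit 322 bp downstream of the start, in the coding part of an exon, with 11 fragments over 1.98 and a fold enrichment of 4.03 (interval 2.18 to 6.95). This was a low peak, since 17.3% of peaks had a lower fold enrichment. Its interval overlaps that of the peak at Col4a1 and Col4a2.

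None of the 11 fibrillar collagen genes was bound, with an interval of 0 to 28.5% that holds the 18.8% of all genes. The nearest summit was 7.13 kb upstream of Col1a1, 419 kb from Col1a2 and 484 kb from Col3a1, the genes of the chains of collagens I and III that make up most scar tissue. The summit upstream of Col1a1 belonged to a peak with 12 fragments over 1.54, a fold enrichment of 5.13, and the nearest other annotated start was 9.38 kb from it. Col5a1, which encodes a chain that regulates fibril width, had a summit 1088 bp downstream of its start, just outside the window, in an intron (13 fragments over 1.64, fold enrichment 5.31). That summit lay 461 bp from the start of the noncoding transcript 2810430I11Rik. A summit 7.67 kb upstream of Col11a2 (fold enrichment 6.56) lay 42 bp from a start of Rxrb.

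Collagen VI, which anchors the muscle fiber's basement membrane to the surrounding connective tissue, had no bound gene among 6 (interval 0 to 45.9%, which also holds 18.8%). The nearest summits were 283 kb from Col6a1, 181 kb from Col6a2 and 130 kb from Col6a3. No gene was bound among the 9 FACIT collagens, which decorate fibrils, the 3 genes of collagens VIII and X, the 2 multiplexins, and the 3 anchoring and other collagens. Their intervals run from 0 to 33.6%, 70.8%, 84.2% and 70.8% in this order, and each holds 18.8%.

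The 100 bases before the starts of 5 unbound genes are given for comparison with the bound genes further on, namely 4 main collagen genes and Itga7, the laminin receptor gene of muscle. They are Col1a1 (chr11:94936124-94936223, plus strand), Col1a2 (chr6:4505393-4505492, plus strand), Col3a1 (chr1:45311438-45311537, plus strand), Col6a1 (chr10:76726169-76726268, minus strand) and Itga7 (chr10:128933718-128933817, plus strand), all GRCm38, 5′ to 3′ in the direction of the gene, with CG dinucleotides in capitals.
Col1a1 upstream: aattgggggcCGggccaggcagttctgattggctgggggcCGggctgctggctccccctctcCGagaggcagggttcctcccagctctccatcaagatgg
Col1a2 upstream: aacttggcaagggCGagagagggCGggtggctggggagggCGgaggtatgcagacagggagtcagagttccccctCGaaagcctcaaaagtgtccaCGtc
Col3a1 upstream: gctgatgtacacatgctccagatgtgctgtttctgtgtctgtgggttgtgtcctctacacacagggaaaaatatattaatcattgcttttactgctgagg
Col6a1 upstream: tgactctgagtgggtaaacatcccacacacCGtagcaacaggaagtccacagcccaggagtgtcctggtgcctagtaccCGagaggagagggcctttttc
Itga7 upstream: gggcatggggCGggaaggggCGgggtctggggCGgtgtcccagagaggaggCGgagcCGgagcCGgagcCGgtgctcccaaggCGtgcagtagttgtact
They hold 3, 5, 0, 2 and 8 CG dinucleotides in this order. Over the wider 500 bp to each side, the observed over expected CpG was 0.300 at Col1a1, 0.356 at Col1a2, 0.178 at Col3a1, 0.216 at Col6a1 and 0.589 at Itga7.

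Among the laminins, Lamb2 and Lamc1 were bound. Lamb2 encodes the beta2 chain, found in the basement membrane at the neuromuscular junction, and Lamc1 encodes the gamma1 chain, which is shared by most laminins of muscle. None of the 5 alpha chain genes was bound (interval 0 to 52.2%, which holds the 18.8% of all genes). The nearest summit lay 2256 kb from Lama2, whose alpha2 chain is the main one around muscle fibers, 766 kb from Lama4 and 86.0 kb from the beta1 gene Lamb1. Lama5 had a summit 2049 bp upstream of its start (10 fragments over 1.54, fold enrichment 4.34), with the nearest other start, of Rps21, 29.5 kb from it.

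The Lamb2 peak, on chr9:108478979-108479209, had the highest fold enrichment of the promoter peaks at these genes. It held 16 fragments over 1.54, a fold enrichment of 6.70 (interval 4.00 to 10.6), with an exact Poisson p = 9.73e-13 and q = 2.44e-08. Its summit lay 775 bp upstream of the start, farther than at any other bound gene, and no other annotated gene had a start within 1000 bp of it. Lamb2 was also the only bound gene among these whose start was not CpG-rich (observed over expected 0.281). The bases up to 100 bp to each side of the summit, chr9:108478982-108479182 on the plus strand of GRCm38, are shown because the CpG content there differed from that at the start, with CG dinucleotides in capitals.
Lamb2 summit: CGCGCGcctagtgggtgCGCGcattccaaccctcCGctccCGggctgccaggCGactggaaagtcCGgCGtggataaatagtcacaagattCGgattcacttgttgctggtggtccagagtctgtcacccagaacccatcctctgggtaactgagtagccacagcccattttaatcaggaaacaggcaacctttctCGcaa
They hold 12 CG dinucleotides, most of them upstream of the summit, and are 56.2% G and C. The peak itself was 231 bp wide.

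The Lamc1 peak lay across the start, on chr1:153332680-153333184. Its summit was 35 bp downstream of the start, in the 5′ untranslated region, with 17 fragments over 2.96 and a fold enrichment of 4.54 (interval 2.75 to 7.12, exact Poisson p = 2.96e-09, q = 2.39e-05). Lamc1 had the most fragments of the promoter peaks at these genes, but its local background was also higher than that of Lamb2, and the intervals of fold enrichment overlap. A second Lamc1 peak lay in an intron 23.9 kb from the start, on chr1:153308697-153308940, with 12 fragments over 1.85 and a fold enrichment of 4.57.

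Among the integrins, Itgb1, Itgav and Itga9 were bound. Itgb1 encodes the beta1 subunit, the partner of most alpha subunits that bind collagen and laminin. Itgav encodes an alpha subunit of receptors for fibronectin and vitronectin, which also activate latent TGF-beta. Itga9 encodes an alpha subunit that pairs with beta1. The peaks lay close to the starts or across them, as the plot of peak position shows.

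The Itgb1 peak was the widest of the promoter peaks at these genes, 920 bp, on chr8:128685389-128686308, with its summit 283 bp downstream of the start in the 5′ untranslated region. It had 13 fragments over 2.12, a fold enrichment of 4.48 (interval 2.54 to 7.44). The Itgav peak, on chr2:83724465-83724681, was the narrowest, 217 bp. Its summit lay 40 bp upstream of the nearer of the gene's 2 starts, downstream of the other, with 16 fragments over 2.12 and a fold enrichment of 5.44 (interval 3.25 to 8.64). The Itga9 peak, on chr9:118606628-118607108, had its summit 321 bp downstream of the start in the coding part of an exon, with 13 fragments over 1.98 and a fold enrichment of 4.70 (interval 2.66 to 7.81). The peak caller's exact Poisson p was 6.06e-08 for Itgb1, 1.39e-10 for Itgav and 2.52e-08 for Itga9. The 3 intervals overlap, so no order among these integrin peaks can be given at this depth.

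The 100 bases upstream of Itgb1 (chr8:128685554-128685653, plus strand), Itgav (chr2:83724297-83724396, plus strand) and Lamc1 (chr1:153332787-153332886, minus strand) are shown beside the unbound starts above, GRCm38, 5′ to 3′ in the direction of the gene, with CG dinucleotides in capitals.
Itgb1 upstream: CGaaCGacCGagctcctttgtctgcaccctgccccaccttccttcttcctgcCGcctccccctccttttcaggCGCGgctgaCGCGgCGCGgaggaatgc
Itgav upstream: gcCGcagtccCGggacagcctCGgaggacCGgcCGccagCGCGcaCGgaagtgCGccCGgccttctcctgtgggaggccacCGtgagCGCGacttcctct
Lamc1 upstream: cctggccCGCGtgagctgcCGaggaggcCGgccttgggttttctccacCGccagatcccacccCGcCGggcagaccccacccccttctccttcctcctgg
They hold 10, 13 and 7 CG dinucleotides, against 0 to 8 at the 5 unbound starts, so the numbers overlap, with 8 at unbound Itga7 and 7 at bound Lamc1. These examples cannot stand for bound and unbound genes at large. None of the 5 unbound starts was CpG-rich by the rule given below, and all of the bound ones shown here were. The 22 unbound genes with a CpG-rich start are not shown, nor are the bases before the start of bound Lamb2 (observed over expected 0.281). The 184 bases of coding sequence around the Itga9 summit, chr9:118606928-118607111 on the plus strand, begin with the gene's ATG and show that the summit was in CpG-dense sequence inside the gene.
Itga9 summit: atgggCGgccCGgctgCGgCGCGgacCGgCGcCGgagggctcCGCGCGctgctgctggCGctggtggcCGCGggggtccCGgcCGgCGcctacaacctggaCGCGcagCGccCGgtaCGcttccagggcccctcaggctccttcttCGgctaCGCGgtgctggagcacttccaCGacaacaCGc
They hold 27 CG dinucleotides.

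No gene for a laminin-binding alpha subunit (Itga3, Itga6 and Itga7) or a collagen-binding one (Itga1, Itga2, Itga10 and Itga11) was bound at a start. The intervals, 0 to 70.8% and 0 to 60.2%, both hold the 18.8% of all genes. Itga7, whose product pairs with beta1 as the main laminin receptor of muscle, had its nearest summit 23961 bp away, and Itga6, which pairs with beta1 or beta4, 86.3 kb away. The fibronectin receptor gene Itga5 had its nearest summit at 61.3 kb and Itgb4 at 52.6 kb. None of the 5 leukocyte alpha subunit genes was bound (interval 0 to 52.2%, beside 18.8% of all genes). Of the 9 beta subunit genes, Itgb1 alone was bound (11.1%, interval 0.281% to 48.2%, which holds 18.8%).

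The peak at Itgb1bp1, which encodes a protein that binds the beta1 tail and holds the receptor inactive, had its summit 74 bp upstream of that gene and exactly at a start of Cpsf3, an RNA 3′ end processing gene. It had the lowest fold enrichment of the promoter peaks here, 3.28 (interval 1.82 to 5.54), with 12 fragments over 2.96, an exact Poisson p = 1.42e-05 and q = 0.025, and 5.17% of all peaks were lower. Whether a shared peak belongs to one gene or the other cannot be told from its position. Of the 3777 peaks within 1000 bp of a protein-coding start, 541 (14.3%) had 2 or more protein-coding genes in reach.

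**Figure D2:**
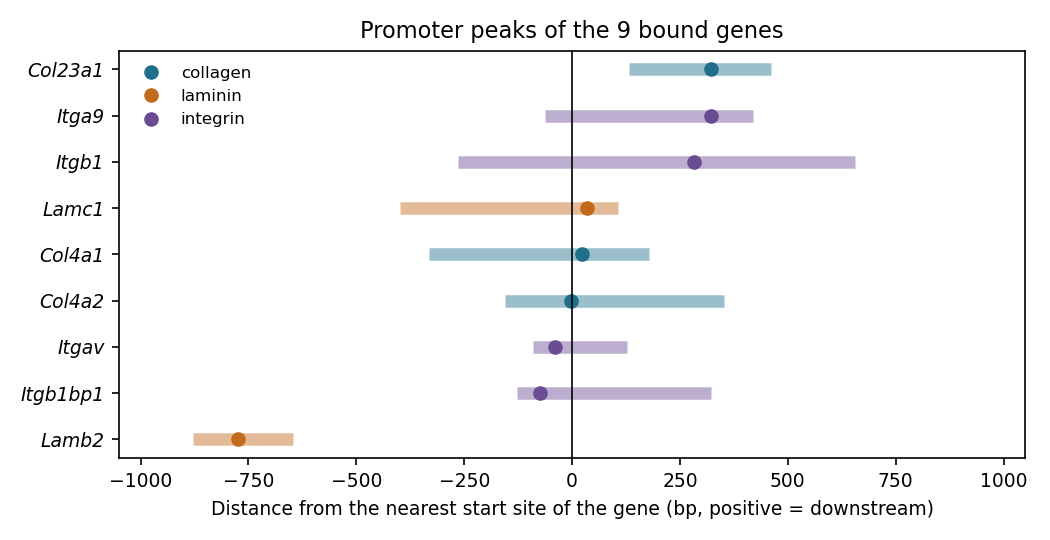
Promoter peaks of the 9 bound genes, 1 row per gene. The horizontal axis is the distance in bp from the gene's nearest start, positive downstream, bars are the peaks, points their summits, and colors the gene families. Col4a1 and Col4a2 share 1 peak, seen from each start. The Lamb2 summit lies 775 bp upstream, and those of Itgb1, Itga9 and Col23a1 lie 283 to 322 bp downstream.

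The fold enrichment of the 8 promoter peaks at these 9 genes ran from 3.28 to 6.70 with a median of 4.62, whereas the median over the 3777 peaks at protein-coding starts was 5.13. The difference between these medians was not tested. The median number of fragments was 14 in both, and the median width was 466 bp against 363 bp. Every one of the 8 intervals of fold enrichment overlaps every other.

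**Figure D3:**
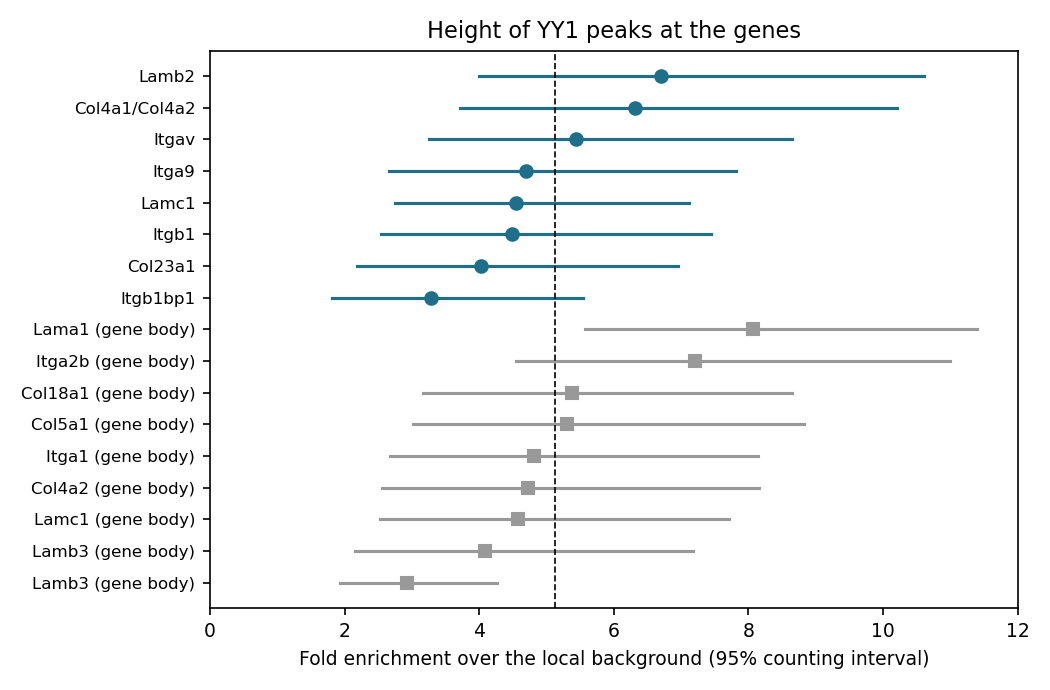
Fold enrichment over the local background (horizontal axis) with its 95% Poisson interval for counting error, for the promoter peaks (blue circles) and gene body peaks (grey squares). The dashed line is the median of all peaks at protein-coding starts, 5.13. The promoter peaks run from 3.28 at Itgb1bp1 to 6.70 at Lamb2 and their intervals overlap, and the gene body peak of Lama1 reaches 8.07.

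The YY1 motif AANATGGC, on either strand within 100 bp of the summit, was found at 0 of the 8 promoter peaks, a number of peaks too small to set against the share of all, and 285 of the 3777 peaks at protein-coding starts (7.55%) held it. The form AAGATGGC, which is part of it, was present at none of the 8 and at 153 of the 3777 (4.05%). The core ATGGC, which both longer forms contain, was present at 1 of the 8, the Col23a1 peak, and at 1154 of the 3777 (30.6%). Within 100 bp of a start, 2 of the 87 genes had AANATGGC (2.30%), Col4a3bp and Lama5, neither of them bound, against 1684 of all protein-coding genes (7.68%). A count of 2 is small, and the difference between these shares was not tested.

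The CpG content of the start moved with binding in these genes as it did in all genes. A start was called CpG-rich when the observed over expected CpG within 500 bp was at least 0.6 and at least 50% of the bases were G or C. By this measure 30 of the 87 genes (34.5%) had a CpG-rich start, against 10763 of all protein-coding genes (49.1%). Of the 30, 8 were bound (26.7%), against 36.2% of all genes with a CpG-rich start, a difference that was not tested. Of the other 57, 1 was bound, Lamb2 (1.75%), against 1.98% of all genes of that kind. The median observed over expected CpG was 0.787 in the 9 bound genes and 0.457 in the 78 others, and over all protein-coding genes it was 0.847 in the bound and 0.482 in the rest. The part of CpG content in the lower share of bound genes was not tested.

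By family, CpG-rich starts were found at 13 of 45 collagen symbols (28.9%), 6 of 11 laminin symbols (54.5%) and 11 of 31 integrin symbols (35.5%). Bound among them were 3 collagen (23.1%), 1 laminin (16.7%) and 4 integrin symbols (36.4%). Over all protein-coding genes 49.1% had a CpG-rich start, and 36.2% of those were bound. None of the 6 collagen VI genes and none of the 5 leukocyte alpha subunit genes had one, and 3 of the 11 fibrillar collagen genes did. Of the 30 genes, 22 were not bound, some of them with a peak elsewhere in or near the gene. Among the 22 were Itgb5 (0.897), Itga6 (0.884), Itga3 (0.838), Col5a1 (0.821), Itgb4 (0.762), Lamb1 (0.661), Lama5 (0.658) and Itga5 (0.637). Itga7 lay just under the limit at 0.589.

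**Figure D4:**
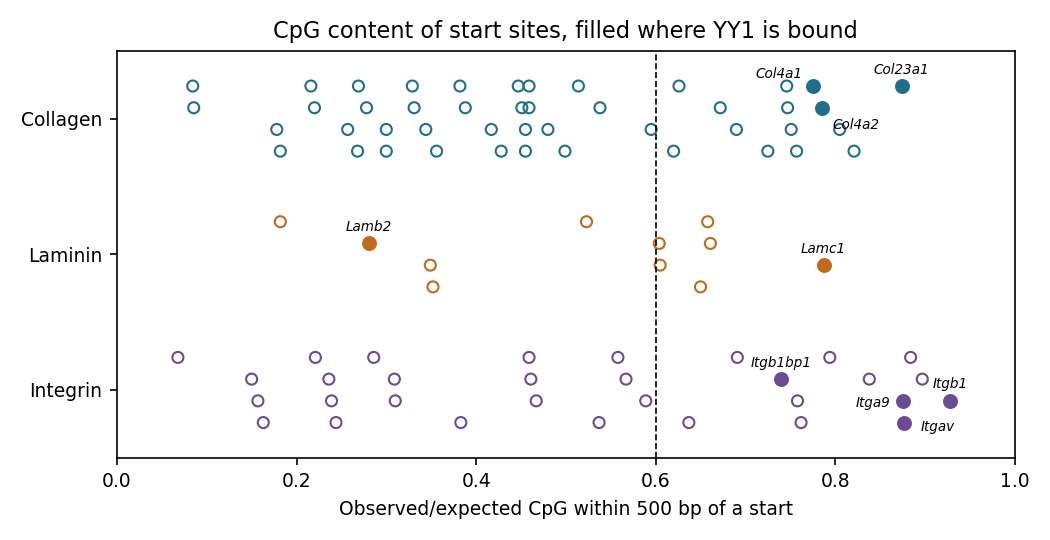
Observed over expected CpG within 500 bp of a start (horizontal axis) for each of the 87 genes, in 1 row per family with points spread vertically for legibility. Filled points are bound genes, open points are not bound, and the dashed line is the limit of 0.6, to which the rule adds a minimum G and C content. Of the filled points, Lamb2 (0.281) alone lies left of the line, and the others lie between 0.740 and 0.928.

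Away from the starts, 6 of the 87 genes (6.90%) had a summit in the gene body but none at a start, against 317 of all protein-coding genes (1.44%). These genes are long, with a median of 82.5 kb against 17.4 kb, and 41 of them span at least 100 kb. Among genes of at least 100 kb, 5 of 41 (12.2%) had a summit in the body only, against 98 of 2492 (3.93%) over all genes. These differences rest on few genes and were not tested. The 6 were Lama1, Itga2b, Col18a1, Col5a1, Itga1 and Lamb3, and all of their summits lay in introns.

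For 3 of the 6, a summit lay within 1000 bp of a start of another transcript unit. The Itga1 summit (fold enrichment 4.82) lay 21 bp from a start of Pelo, a gene nested in Itga1 that encodes a ribosome rescue factor. One of the 2 Lamb3 summits (fold enrichment 4.08) lay 296 bp from a start of Hsd11b1, and the Col5a1 summit has been described. The other Lamb3 peak had 25 fragments, but over a background of 7.90, and its fold enrichment of 2.92 was higher than that of 2.76% of peaks. In Col18a1, whose chain carries the endostatin fragment, the summit lay 16.8 kb from the nearest start of the gene, with 15 fragments over 1.98 and a fold enrichment of 5.38. Col4a2, bound at its start, also had an intron peak at 14.9 kb with 11 fragments over 1.54 and a fold enrichment of 4.73.

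The highest peaks at any of the 87 genes by fold enrichment were in gene bodies, at Lama1 and Itga2b. Their intervals overlap those of the promoter peaks at Lamb2 and at Col4a1 and Col4a2, so this order is not certain. In Itga2b, the alpha subunit gene of platelets, the summit lay 2600 bp from the start, on chr11:102467144-102467431, with 20 fragments over 1.91 and a fold enrichment of 7.21 (interval 4.54 to 11.0). The comprehensive annotation of the same release has a start of Itga2b within 1000 bp of this summit, and by it the gene counts as bound. In Lama1, the alpha1 laminin chain of early basement membranes, the peak lay 44.1 kb from the start with 31 fragments over 2.96 and a fold enrichment of 8.07 (interval 5.57 to 11.4). Of this peak 77.3% is marked as repeat in the reference, and how uniquely reads map there was not tested.

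The median distance from a start to the nearest summit was 104 kb, against 93.7 kb over all protein-coding genes. Within 5 kb, 12 of the 87 genes had a summit (13.8%), against 4475 of all genes (20.4%). Over 100 kb from any summit were 44 genes (50.6%), against 48.7% of all genes. The share of these genes with a summit was below that of all genes up to 100000 bp and above it at 300000 bp, where it was 77.0% against 72.1%.

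**Figure D5:**
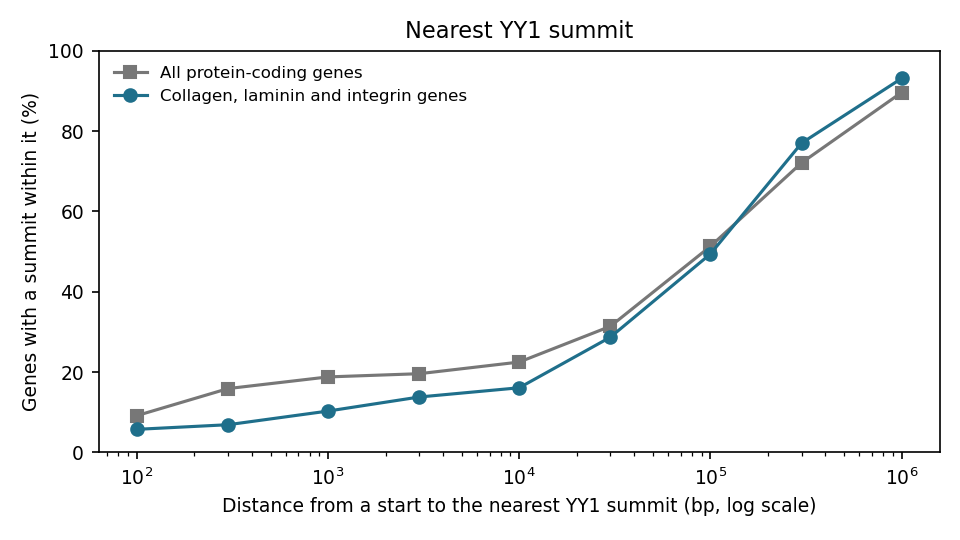
Percentage of genes (vertical axis) with a YY1 summit within a given distance of a start (horizontal axis, bp, log scale), for the 87 collagen, laminin and integrin genes (blue circles) and all protein-coding genes (grey squares). At 1000 bp the curves stand at 10.3% and 18.8%, and at 100000 bp at 49.4% and 51.3%.

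The other genes of matrix assembly and adhesion were counted in lists by role. Of 30 genes for collagen processing, 3 were bound (10%, interval 2.11% to 26.5%, which holds the 18.8% of all genes), namely Colgalt1, a collagen glycosyltransferase (fold enrichment 4.80), Adamts2, which removes the procollagen N-propeptide (4.73), and Plod3, a lysyl hydroxylase (3.78). The Plod3 peak also lay within reach of Znhit1. In this list 24 of the 30 had a CpG-rich start, of which 12.5% were bound, against 36.2% of all genes with such a start. Of 26 other matrix and basement membrane proteins, none was bound (interval 0 to 13.2%, below 18.8%), and 8 of the 26 had a CpG-rich start. Of 20 matrix proteases and inhibitors, 3 were bound (15.0%, interval 3.21% to 37.9%, which holds 18.8%), the sheddase genes Adam17 (6.70) and Adam10 (3.78) and the metalloproteinase inhibitor gene Timp2 (4.80).

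Of 18 other matrix receptors and their partners, 6 were bound (33.3%), with an interval of 13.3% to 59.0% that holds the 18.8% of all genes. They were Sgcb, a sarcoglycan (fold enrichment 8.28), Cd151, a tetraspanin that binds laminin-binding integrins (6.31), the syndecans Sdc3 (5.92) and Sdc1 (4.34), Dag1, the dystroglycan gene (4.37), and Cd47, a partner of alphav beta3 integrin (4.31). Of 30 integrin adhesion adaptors, 11 were bound (36.7%, interval 19.9% to 56.1%). The 5 with the highest fold enrichment were Ilk, integrin-linked kinase (7.04), Fermt2, a kindlin that binds the beta tail (6.31), Sharpin, an inhibitor of integrin activation (5.92), the actin crosslinker gene Actn4 (5.79) and Ptk2, focal adhesion kinase (5.76). The Ilk peak was also within reach of Rrp8 and the Sharpin peak of Maf1. Of these 30 adaptors 22 had a CpG-rich start, and 11 of the 22 (50%) were bound, against 36.2% of all such genes. The lists hold few genes and were chosen with earlier results of these data known. No test of the difference between them or from all genes was made, among CpG-rich starts or otherwise.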

How the data were processed

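MuSCs were profiled with 1 YY1 ChIP-seq library against 1 background library. The authors state in the methods that reads were trimmed, filtered and aligned to mm10 with Bowtie2, that redundant reads were discarded, and that MACS2 called the peaks with a limit of 0.0001 on the p-value. Program versions are not given in the sources used here. The deposited list holds for each peak the fold enrichment that the authors' peak caller computed, a ratio of fragments at the summit to the local background with 1 added to each, and the intervals keep this form. It also holds, as deposited, −log10 of the p-value and of the q-value from the same Poisson model, which compares libraries and says nothing of variation between mice. The integer score column was left out.

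From fold enrichment and p-value the fragments at each summit were recovered, whole for 100% of peaks within 0.001 on the −log10 scale. The depth follows from the most frequent background, the narrowest peak and the mouse genome size preset in MACS2, and a deeper library could pass weaker sites. Poisson and Clopper-Pearson 95% intervals cover counting error only. Summits were placed against the starts of all basic transcripts, leaving out the mitochondrial genome, and promoter sequence and motifs were read from the reference genome of the same build. A gene could be reached by several peaks and a peak could reach several genes.

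Members and gene lists were chosen with earlier results of these data known. Named were all bound genes, main fibrillar, basement membrane and muscle chains, genes with a summit in the body only or within 5000 bp of a start, and up to 5 bound genes per list by fold enrichment. Other genes, such as Col11a2, Itga3, Itgb5 and the sixth bound matrix receptor, were named after their values were seen. The CpG measure, the annotation comparison and the sequences of unbound starts were also chosen after seeing the data. One listed symbol, Gpr56, was not found in the annotation. Sequences at gene body peaks and at the Col23a1 summit are not reported here. No test was possible with 1 library. Peak placement and fragment recovery were tested on simulated data. Scripts ran in Python 3.11.15 (scipy 1.17.1, pysam 0.24.0, numpy 2.4.6, matplotlib 3.10.9, pandas 2.3.3). The alternatives were other windows, peak limits, start sites, annotations, motif forms and CpG limits.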

Additional observations from a re-analysis of the deposited data

How the results depend on the processing

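Over the alternatives run, 4 to 10 of the 87 genes were bound, and in each the share of all protein-coding genes bound was higher than theirs. Windows of 500 and 2000 bp gave 8 and 10 bound genes (17.7% and 19.3% of all genes), losing Lamb2 and gaining Col5a1. A q below 0.01 gave 8, without Itgb1bp1, and counting each summit for its nearest gene gave 7, without Col4a1 and Itgb1bp1. The comprehensive annotation, added after seeing the data, gave 10, with Itga2b.

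The counts that moved by over 1.5 times did so under 4 settings. With 500 bp to each side, 1 laminin gene was bound in place of 2. With 1000 bp upstream to 100 bp downstream, 2 integrin genes were bound in place of 4, at 5 peaks in place of 8. With a fold enrichment of at least 5, 4 of the 87 genes were bound in place of 9, with 1 laminin gene and 1 integrin gene, at 3 peaks. With the core ATGGC in place of AANATGGC, 1 peak in place of 0 held the motif. In the first 3, fewer peaks or a shorter window entered by construction. No direction reversed.

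CpG-rich starts numbered 30, 37 with an observed over expected limit of 0.5 and 36 within 250 bp, with 8 of them bound each time. The 6 genes with a summit in the body only became 5 with the 2000 bp window and 4 where no start of any gene was allowed within 1000 bp. The share of all protein-coding genes was not computed under these alternatives. Whether the share of the collagen, laminin and integrin genes stays above it there was therefore not tested. No paired analysis was possible because a single YY1 library was made, so no replicate could be left out either.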
